A study of Mus musculus with 12 samples.

Results

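Broad Jmjd2c promoter peaks without Jmjd2a are stretches of at least 2000 bp around transcription start sites that were called for the histone demethylase Jmjd2c (Kdm4c) and hold no call for its relative Jmjd2a (Kdm4a). They were chosen from the deposited peak lists by 3 measured properties. The peak lay within 1000 bp of a start site, it was 2000 bp or wider, and no Jmjd2a peak overlapped it by 1 bp or more. The rule found 391 of 10521 Jmjd2c peaks. Of the 9053 Jmjd2c peaks within 1000 bp of a start site, 1192 were at least 2000 bp wide. The 391 made up 32.8% of these, and the other 801 overlapped a Jmjd2a peak. Among Jmjd2c promoter peaks of any width, 38.4% (3476 of 9053) had no Jmjd2a overlap. Overlap was part of the rule, so nothing is read from the closeness of these shares.

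The study mapped both demethylases and trimethylated H3K9 and H3K36 in mouse leukaemic granulocyte-macrophage progenitors (L-GMP) transformed by the MLL-AF9 fusion oncogene. The cell lines came from leukaemic mice of the C57BL/6 strain, and the labels do not say how many lines or animals were used. All groups share the genotype Jmjd2a/b/cf/f;Rosa26::CreERT2, that is, floxed Jmjd2a, Jmjd2b and Jmjd2c with a Cre recombinase that 4-hydroxytamoxifen (OHT) activates, and all were grown with 20% serum and 10 ng/ml interleukin-3. The 12 libraries form 8 groups, untreated (Ctrl) cells and cells kept in 500 nM OHT for 96 h, with 1 library per condition for Jmjd2a and Jmjd2c and 2 for each histone mark. The deposited tables used here give positions of peaks and no value per library, so depth is unknown and no value has a replicate check. Neither the OHT effect nor either histone mark was analysed here. The libraries behind each peak list, whether Ctrl, OHT or both, are likewise unknown. The deletion of the targeted genes, the specificity of the antibodies and the identity of the cells could not be checked from peak positions. A missing Jmjd2a call does not show that the protein was missing.

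Jmjd2c belongs to the Jumonji enzymes, which use iron and 2-oxoglutarate to take methyl groups off histone lysines. Jmjd2 enzymes act on methylated H3K9, a mark of silent chromatin, and on methylated H3K36, a mark of transcribed gene bodies. Jmjd2a and Jmjd2c also carry Tudor domains that bind methylated H3K4, the mark of active promoters. Most such promoters lie in CpG islands, stretches rich in unmethylated CG pairs. The MLL-AF9 fusion drives leukaemia by keeping developmental genes such as the Hoxa cluster switched on.

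The promoter sequence under 8 of the peaks is shown as an example of the DNA the calls lay on. Each line gives the 250 bases before the RefSeq start site, on the strand of the gene, from assembly GRCm38.p6, which has the same primary sequence as mm10. Capitals mark matches to 10 short motifs searched on both strands, and a match is a description of letters only. Gse1 is at chr8:120488616-120488865 (plus strand), Spred2 at chr11:19924192-19924441 (plus), Hnrnpl at chr7:28810640-28810889 (plus), Atxn2 at chr5:121711359-121711608 (plus), Hoxa10 at chr6:52234940-52235189 (minus), Zfp84 at chr7:29768302-29768551 (plus), Kat2b at chr17:53566721-53566970 (plus) and Prkar1a at chr11:109650699-109650948 (plus). They are the widest members, with a single start site and a sequence at hand, that hold a given motif.
Gse1: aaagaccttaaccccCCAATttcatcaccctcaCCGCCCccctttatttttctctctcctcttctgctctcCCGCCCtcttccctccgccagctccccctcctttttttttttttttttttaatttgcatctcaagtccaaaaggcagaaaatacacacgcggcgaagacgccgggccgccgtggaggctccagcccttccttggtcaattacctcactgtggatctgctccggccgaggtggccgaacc
Spred2: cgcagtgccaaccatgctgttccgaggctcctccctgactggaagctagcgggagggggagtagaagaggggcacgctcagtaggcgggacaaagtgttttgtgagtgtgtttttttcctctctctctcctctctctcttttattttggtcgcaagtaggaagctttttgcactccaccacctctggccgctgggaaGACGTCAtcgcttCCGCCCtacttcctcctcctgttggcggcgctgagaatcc
Hnrnpl: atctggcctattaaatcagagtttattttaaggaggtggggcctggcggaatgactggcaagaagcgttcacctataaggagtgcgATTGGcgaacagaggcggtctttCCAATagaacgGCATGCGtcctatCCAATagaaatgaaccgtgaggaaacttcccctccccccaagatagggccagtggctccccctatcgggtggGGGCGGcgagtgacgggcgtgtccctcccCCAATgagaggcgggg
Atxn2: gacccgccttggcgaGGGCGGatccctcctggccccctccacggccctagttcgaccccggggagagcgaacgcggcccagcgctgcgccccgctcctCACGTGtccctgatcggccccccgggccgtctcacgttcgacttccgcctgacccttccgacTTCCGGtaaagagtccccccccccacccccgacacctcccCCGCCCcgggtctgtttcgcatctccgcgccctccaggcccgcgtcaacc
Hoxa10: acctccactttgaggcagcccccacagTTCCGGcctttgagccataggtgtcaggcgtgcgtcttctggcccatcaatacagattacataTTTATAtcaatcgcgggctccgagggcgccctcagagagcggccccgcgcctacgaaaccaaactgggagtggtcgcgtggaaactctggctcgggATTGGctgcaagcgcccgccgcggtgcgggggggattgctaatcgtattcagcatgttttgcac
Zfp84: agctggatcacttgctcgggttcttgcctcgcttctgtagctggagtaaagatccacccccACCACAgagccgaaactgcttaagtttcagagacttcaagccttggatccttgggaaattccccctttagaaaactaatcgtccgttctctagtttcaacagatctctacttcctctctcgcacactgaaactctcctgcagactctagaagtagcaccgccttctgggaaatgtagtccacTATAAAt
Kat2b: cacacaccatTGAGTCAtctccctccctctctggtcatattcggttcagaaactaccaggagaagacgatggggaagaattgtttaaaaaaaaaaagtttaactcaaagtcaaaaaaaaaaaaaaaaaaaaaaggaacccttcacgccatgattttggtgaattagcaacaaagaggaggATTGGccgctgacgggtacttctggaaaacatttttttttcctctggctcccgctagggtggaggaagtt
Prkar1a: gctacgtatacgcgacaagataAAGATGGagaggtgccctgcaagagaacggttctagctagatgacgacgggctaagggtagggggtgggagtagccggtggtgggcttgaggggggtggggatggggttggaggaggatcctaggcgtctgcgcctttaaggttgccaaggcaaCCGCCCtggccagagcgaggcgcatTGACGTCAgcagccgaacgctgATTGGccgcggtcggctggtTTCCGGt

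Gse1 and Spred2 hold GC boxes (GGGCGG, the letters bound by Sp1-family factors), and Spred2 has a cyclic AMP response element (CRE, TGACGTC) from 53 to 47 bases before its start. Hnrnpl has 4 CCAAT boxes (CCAAT, the letters of NF-Y) and an NRF1 match (GCATGCG). Atxn2 carries an E-box (CACGTG) and an ETS match (CCGGAA). The Hoxa10 window has a TATA box match (TATAAA) on the opposite strand, 160 to 155 bases before the start. Zfp84 holds a RUNX match (TGTGGT, read on the opposite strand) and a TATA box match at its end, and Kat2b, which codes for the acetyltransferase PCAF, holds an AP-1 match (TGANTCA). These 2 windows are the poorest in GC of the 8, at 49% for Zfp84 and 47% for Kat2b over 300 bases. In Prkar1a, which codes for a regulatory subunit of the cyclic AMP-dependent kinase, a CRE was read on both strands of the same palindrome, and a YY1 match (AAGATGG) lies farther out. The share of all promoter windows that hold each motif is given with the motif counts.

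The widest member lay over Gnas, which codes for the stimulatory G protein alpha subunit, and spanned 5046 bp (chr2:174326519-174331564). It began 1395 bp before the first start site and ended 3651 bp inside the gene, and the nearest Jmjd2a peak was 84268 bp away. The second, at the corepressor-associated gene Gse1, spanned 4721 bp (chr8:120486376-120491096). The third, at Spry2, an inhibitor of receptor tyrosine kinase signalling, spanned 4590 bp (chr14:105894762-105899351). Next came 1190002F15Rik (Lockd), a long non-coding RNA beside Cdkn1b, with 4560 bp. A 4464 bp peak lay beside the start of Tnrc18, and the peak of Cdk6, a cyclin-dependent kinase that drives entry into S phase, spanned 4309 bp (chr5:3340693-3345001).

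The next widest members were at the ubiquitin ligase gene Trim8 (4108 bp), at Ubtf, which codes for the ribosomal DNA transcription factor UBF (4098 bp), and at Arid1b (4048 bp) and Arid2 (4000 bp), which code for subunits of SWI/SNF chromatin remodellers. Zfp710 (4031 bp) and Zbtb7a (3810 bp) code for zinc finger proteins. The 3559 bp peak at Mir7653, Nek8 and Tlcd1, the 3499 bp peak at Fbxo11 and the 3446 bp peak at Thap2 and Zfc3h1 completed the 15 widest. Genes in this group of 15 therefore ranged from signalling and cell cycle to chromatin, and 3 of the 15 peaks carried several annotated genes.

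**Figure D1:**
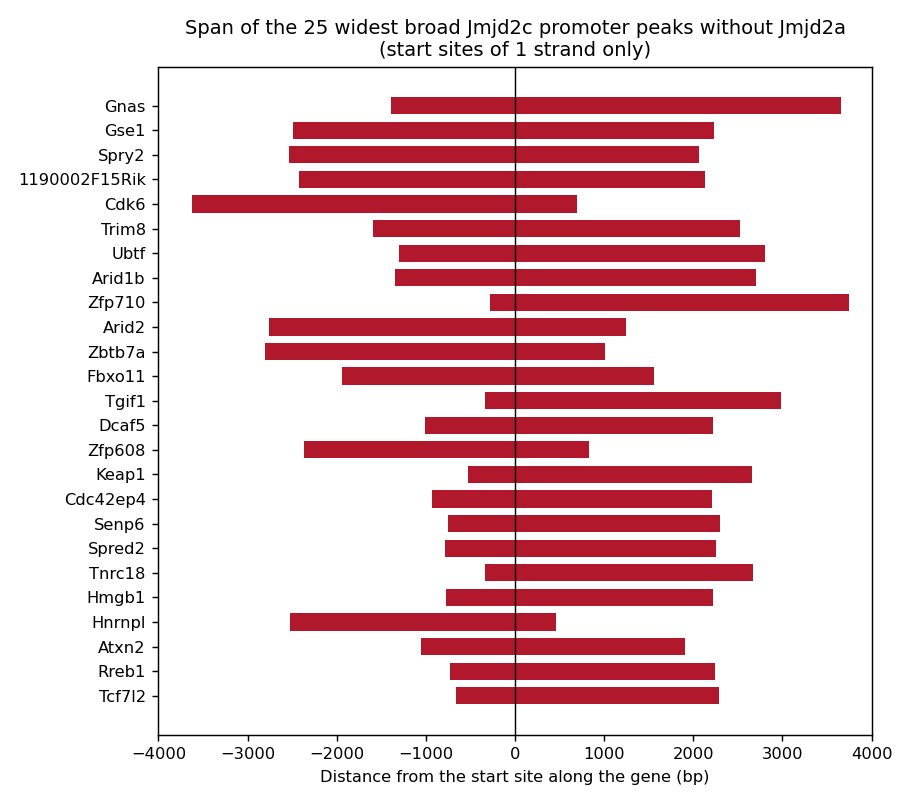
Span of the 25 widest broad Jmjd2c promoter peaks without Jmjd2a whose start sites lie on 1 strand, with 1 bar per peak. The x axis gives distance along the gene in bp from the most upstream start site under the peak. Zfp710 and Gnas reach farthest into the gene, to 3751 and 3651 bp, and Cdk6 reaches farthest upstream, to 3619 bp.

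Median width among the 391 peaks was 2278 bp, with quartiles at 2124 and 2580.5 bp, so most were only a little above the minimum. The narrowest members, at Smcr8 and Top3a, at Ttc39c and at Srd5a3, were all 2000 bp. The widest peaks just below the minimum and without Jmjd2a were at Smg9 (1998 bp), Mllt6 (1996 bp) and Nrbp1 (1996 bp). The 801 broad peaks with Jmjd2a had a median width of 2261 bp (2103 to 2532 bp). These widths follow from the rule and are given as a description.

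The share of Jmjd2c promoter peaks without Jmjd2a changed little with width above 1000 bp. It was 55.4% below 1000 bp (95% exact binomial interval 53.2% to 57.5%, 1159 of 2093) and 34.7% from 1000 to below 1500 bp (33.1% to 36.3%). Above the minimum it was 32.4% from 2000 to below 2500 bp (29.3% to 35.6%), 35.1% from 2500 to below 3000 bp (29.1% to 41.6%) and 30.8% at 3000 bp or more (21.5% to 41.3%, 28 of 91). The intervals of the 3 broad bins overlap. All intervals here cover counting error over peaks only, and peaks are not replicates of a condition.

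**Figure D2:**
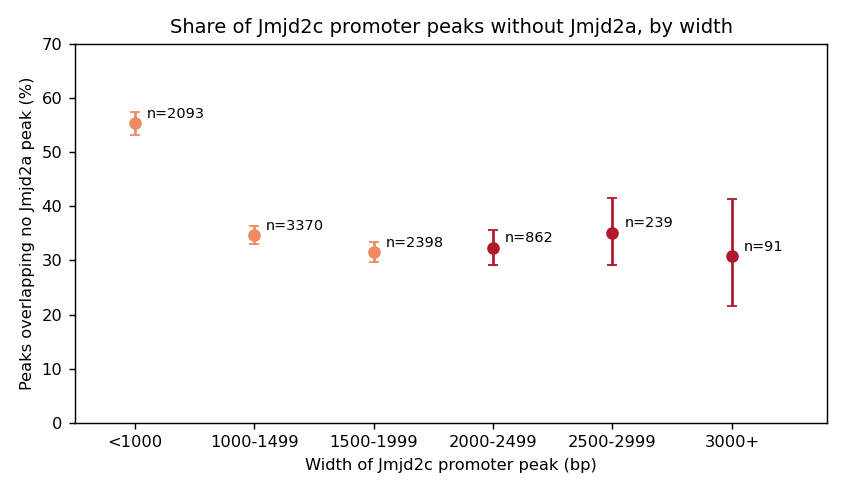
Share of Jmjd2c promoter peaks that overlap no Jmjd2a peak (%, y axis) in bins of peak width (bp, x axis), with exact 95% binomial intervals as error bars and the number of peaks per bin. The narrowest bin stands at 55.4%, and the bins from 1000 bp upward lie between 30.8% and 35.1%.

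Of the 391 peaks, 389 (99.5%) covered a start site. The 2 exceptions were the 4464 bp peak beside Tnrc18, 576 bp from the start by the authors' deposited distance, and the 2268 bp peak at Arid5b, 307 bp away. In the 281 peaks whose start sites lie on a single strand, the median reach was 969 bp upstream (interquartile range 662 to 1198 bp) and 1367 bp downstream (1109 to 1676 bp). Where several start sites lay under a peak, reach was counted from the most upstream one in every class. A longer downstream arm was found in 202 of 281 (71.9%, interval 66.2% to 77.1%). The 573 broad peaks with Jmjd2a gave medians of 968 and 1327 bp and a share of 73.3%. Narrower peaks reached 404 and 786 bp without Jmjd2a, and 505 and 809 bp with it. The downstream arm was the longer one in 83.5% of narrower peaks without Jmjd2a and 82.1% with it. A longer downstream arm was therefore less common in both broad classes than in the narrower ones.

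Coverage along the gene showed the same shape. At 500 bp downstream 99.6% of these 281 members were covered, at 1000 bp 87.2%, at 1500 bp 39.1% and at 2000 bp 11.7%. At 500 bp upstream the share was 87.2% and at 1000 bp 45.6%. The broad peaks with Jmjd2a were covered in 83.4% at 1000 bp and 34.7% at 1500 bp downstream, and in 45.7% at 1000 bp upstream.

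**Figure D3:**
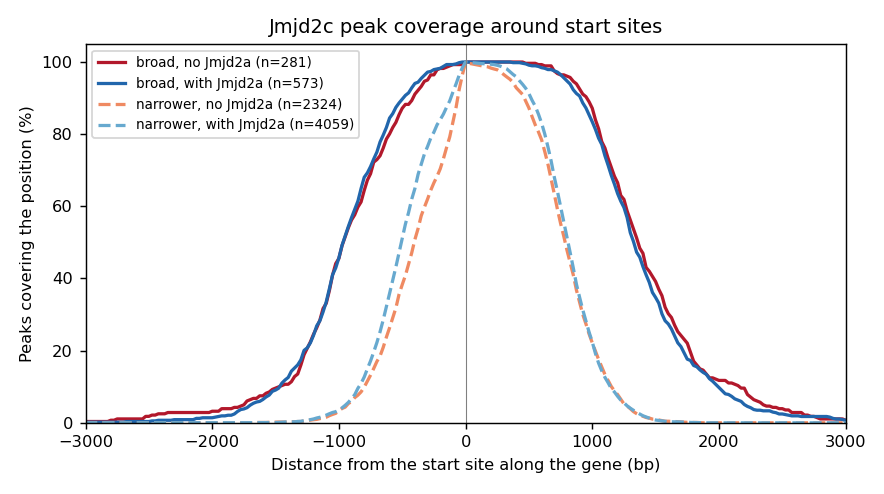
Share of peaks covering each position (%, y axis) against distance from the start site along the gene (bp, x axis) for the 4 classes of Jmjd2c promoter peaks, broad or narrower, with or without Jmjd2a. Members fall to 87.2% at 1000 bp downstream and 45.6% at 1000 bp upstream, and the curve of the broad peaks with Jmjd2a runs close to theirs.

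Single members departed from this shape in both directions. The peak at Tgif1, a homeobox repressor of TGF-beta signalling, reached 337 bp upstream and 2987 bp downstream. At Ubtf the reach was 2799 bp downstream, and at Runx2, a Runt-family transcription factor, 2774 bp downstream and 135 bp upstream. The opposite held at Cdk6, whose peak extended 3619 bp upstream and 690 bp into the gene. Zbtb7a (2804 bp), Arid2 (2754 bp), Spry2 (2532 bp) and Hnrnpl (2526 bp) had the next longest upstream arms, and Hnrnpl reached only 462 bp downstream. Tgif1 had 3 start sites, and Zfp710, Gnas, Ubtf and Runx2 had 2 each. Their downstream arms therefore include the distance between start sites. Cdk6, Zbtb7a, Arid2, Spry2 and Hnrnpl had 1 start site each. The 79 peaks with the longer arm upstream lay at genes of median length 50067 bp, and the 202 with the longer arm downstream at genes of 29588 bp.

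Start sites of both strands lay under 104 of the 378 members for which strand could be read (27.5%, interval 23.1% to 32.3%). The share was 28.1% in broad peaks with Jmjd2a, 8.38% in narrower peaks without it and 10.0% in narrower peaks with it. A wider peak can cover more start sites, and both broad classes stood close together. Curated RefSeq genes numbered 2 or more at 133 members (34.0%). The peaks with 3 genes were those at Mir7653, Nek8 and Tlcd1, at Eme2, Mrps34 and Nme3 (2800 bp), at Dnaja1, Gm6297 and Mir207 (2425 bp), at Hspb6, Proser3 and Mir9769 (2334 bp), and at Borcs8, Gm45929 and Rfxank (2050 bp). At such peaks the call cannot be assigned to 1 gene.

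By the authors' deposited annotation, 382 members (97.7%) touched a 5′ UTR, 280 (71.6%) coding sequence and 41 (10.5%) a 3′ UTR. In the same order, broad peaks with Jmjd2a gave 98.9%, 73.2% and 8.1%. Narrower peaks gave 90.8%, 62.5% and 7.6% without Jmjd2a, and 95.6%, 68.2% and 6.7% with it. Of the 527 curated genes with a start within 1000 bp of a member, 480 (91.1%) code for proteins and 37 (7.02%) give long non-coding RNAs. Several of the latter run divergent or antisense to a regulatory gene, as A930024E05Rik does to Kdm2b, Zeb2os to Zeb2, Sp3os to Sp3 and Hoxa11os to Hoxa11. The shares of these gene types over all curated genes are not given here, so nothing is read from them. Tnrc18 and Set had 2 members each, Set coding for a histone chaperone and phosphatase inhibitor, with peaks of 2716 and 2385 bp at different start sites.

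Distance to Jmjd2a beyond the rule varied widely among the members. The nearest Jmjd2a peak lay at a median of 52613 bp (interquartile range 28437 to 119542 bp). It was within 1000 bp for 3 members (0.8%), within 10000 bp for 34 (8.7%, interval 6.1% to 11.9%) and beyond 100000 bp for 117 (29.9%, interval 25.4% to 34.7%). Narrower peaks without Jmjd2a had a median gap of 38272 bp, with 556 of 3085 within 10000 bp. For scale, the nearest other Jmjd2c peak lay at a median of 35302 bp from members and 51767 bp from broad peaks with Jmjd2a. The members nearest to a Jmjd2a peak were at Bbip1 and Shoc2 (225 bp), at Cpt1a, the gate of fatty acid entry into mitochondria (566 bp), at Zadh2 (803 bp), at Gm15972 and Mapre2 (1283 bp) and at Cdk6 (1800 bp). Just outside the rule, the broad peaks with the smallest overlap were at Lztr1 (125 bp), at Ddias and Prcp (220 bp), at Nup50 (255 bp), at Pcmtd1 (260 bp) and at Zfp384 (274 bp).

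The members farthest from Jmjd2a were at Kdm6a (2261443 bp), Msl3 (1288800 bp), Rbbp7 (1105150 bp), Pik3r1 (892920 bp) and Rnd3 (785217 bp), the first 3 of them on chromosome X. On X, 192 of 275 Jmjd2c promoter peaks of any width had no Jmjd2a overlap (69.8%, interval 64.0% to 75.2%), against 3282 of 8774 on the autosomes (37.4%, 36.4% to 38.4%). Among broad peaks the values were 9 of 16 on X (56.3%, 29.9% to 80.2%) and 382 of 1176 on autosomes (32.5%, 29.8% to 35.2%), and these intervals overlap. Between chromosomes 16 and 19, the lowest and highest autosomes, shares ran from 28.6% to 47.4% at any width and from 18.2% to 49.0% among broad peaks. Broad peaks made up 5.8% of Jmjd2c promoter peaks on X and 13.4% on autosomes, so the shares at any width compare unlike widths. The 9 members on X lay at Usp9x (2932 bp wide), Kdm6a (2740 bp), Phf8 (2425 bp), Msl3 (2400 bp), Taz with Dnase1l1 (2325 bp), Ogt (2178 bp), Aff2 (2165 bp), Rbm10 with Ndufb11 (2102 bp) and Rbbp7 (2022 bp). Kdm6a and Phf8 code for histone demethylases, Msl3 and Rbbp7 for subunits of chromatin complexes, and Ogt for the enzyme that adds N-acetylglucosamine to nuclear proteins. Depth on X and on the autosomes is unknown.

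Some members were flanked by a second Jmjd2c peak, so that the width of the occupied stretch is larger than the peak. Another Jmjd2c peak lay within 1000 bp of 16 members (4.1%), against 12 of the 801 broad peaks with Jmjd2a (1.5%), 391 of the 3085 narrower peaks without it (12.7%) and 227 of the 4776 narrower peaks with it (4.75%). The gap was 146 bp at Ep300, which codes for the p300 acetyltransferase, 194 bp at Tgif1 and 343 bp at Zbtb7a. At Tnrc18, 2 members of 3009 and 4464 bp lay 236 bp apart. These gaps were chosen for print after their values were seen.

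Few genes of the members had Jmjd2a elsewhere, which the rule largely fixes, so the counts are given as a description from which nothing is read. The authors' deposited table of start sites bound by both proteins lists 4 of the 527 genes (0.759%), Ccdc77, Mllt10, Pcmt1 and Tshz1. A Jmjd2a peak lay anywhere within the gene in 21 (3.98%).

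Promoter sequence was not used by the rule. A 300 base RefSeq window, from 250 bases before to 50 after the start, was matched within 100 bp for 314 of the 391 members (80.3%), and none on chromosome 18. The ratio of observed to expected CG pairs, which is near 1 where CG has not been lost, had a median of 0.853 in the members (interquartile range 0.741 to 0.980). It was 0.875 in broad peaks with Jmjd2a, 0.783 in narrower peaks without it, 0.811 in narrower peaks with it and 0.384 over all 32851 windows. A ratio of 0.6 or more, a usual limit for a CpG island, was found in 282 of 314 members (89.8%, interval 85.9% to 92.9%) and in 93.9% of broad peaks with Jmjd2a. The share was 77.2% and 84.7% in narrower peaks without and with Jmjd2a, and 35.8% over all windows. Median GC content was 64.7% in the members, 66.3% in broad peaks with Jmjd2a and 52.7% over all windows.

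A few members lay on CG-poor promoters. The lowest ratios were at Lpar6, a receptor for lysophosphatidic acid (0.0868), Zfp710 (0.170), Gm6981 with Rdx (0.189) and Wipf1, an actin regulator of blood cells (0.262). The peak at Zfp710 extended almost wholly into the gene, so its window covers only a small end of the peak. These 4 were chosen after their values were seen.

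A GC box was present in 242 of 314 member windows (77.1%, interval 72.0% to 81.6%), against 76.6% in broad peaks with Jmjd2a, 70.5% and 70.4% in the narrower classes without and with it, and 35.7% of all windows. The ETS letters were in 103 (32.8%), against 33.2% in broad peaks with Jmjd2a and 14.9% of all windows. CCAAT was in 111 (35.4%), near the 37.4% of all windows. Broad peaks with Jmjd2a held it in 38.4%, and narrower peaks without and with Jmjd2a in 39.2% and 39.8%. The NRF1 letters were in 31 (9.9%, all windows 3.6%), the E-box in 30 (9.6%, all 7.2%), the YY1 letters in 19 (6.1%, all 6.3%) and CRE in 14 (4.5%, all 3.2%). Broad peaks with Jmjd2a had 9.1%, 10.6%, 7.5% and 5.9% for these motifs. Narrower peaks had 6.9%, 10.4%, 8.0% and 6.9% without Jmjd2a, and 8.0%, 11.4%, 8.0% and 6.5% with it. For the E-box, YY1 letters and CRE, members thus had the lowest share of these classes.

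Fewer members than windows overall held a TATA box, 17 (5.4%) against 13.6%, a RUNX match (TGTGGT), 27 (8.6%) against 16.8%, and an AP-1 match (TGANTCA), 9 (2.9%) against 7.8%. The broad peaks with Jmjd2a had 4.0%, 7.2% and 2.7% for these motifs. The motif shares were not corrected for the GC content of the windows.

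**Figure D4:**
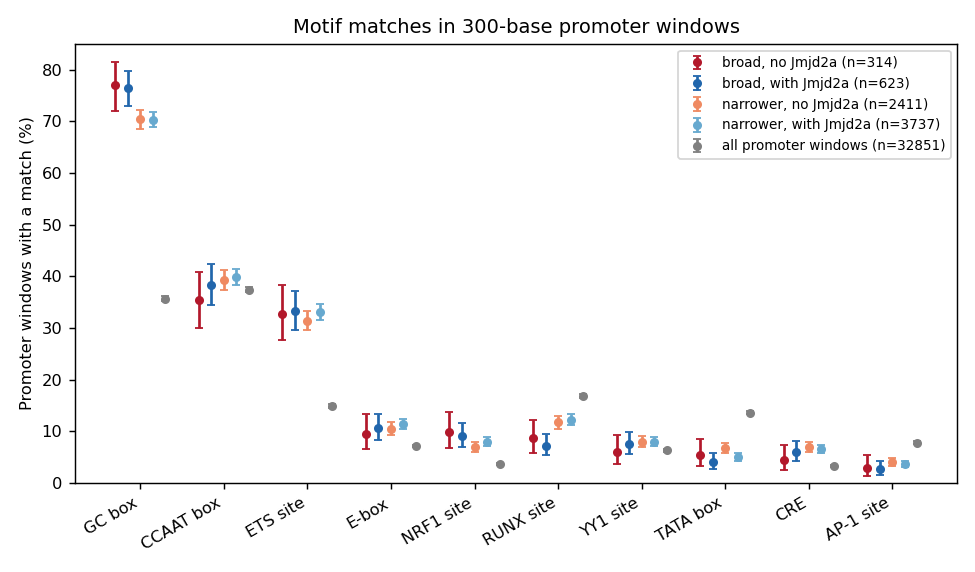
Share of 300 base promoter windows holding each motif (%, y axis) for 10 motifs on the x axis, with members, broad peaks with Jmjd2a, the narrower classes and all RefSeq windows as separate points and exact 95% binomial intervals as error bars. The GC box stands at 77.1% in members and 35.7% over all windows, and the TATA box at 5.4% and 13.6%.

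Among all 26219 curated genes, 2.01% (527) started within 1000 bp of a member and 4.11% (1078) at a broad peak with Jmjd2a. These shares are the background for each gene list. The lists were chosen with earlier results of these data known, are described by counts alone, and their genes are no independent replicates. Of the 10254 genes with any Jmjd2c promoter peak, 5.14% were at a member.

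Targets of MLL fusion proteins gave the highest share of the 21 lists, 8 of 38 genes (21.1%, interval 9.55% to 37.3%), with 4 (10.5%) at broad peaks with Jmjd2a. The members were Cdk6 (4309 bp), Senp6 (3054 bp), which codes for a SUMO protease, Runx2 (2909 bp), Hoxa10 (2902 bp), Etv6 (2282 bp), Arid5b (2268 bp), Pan3 (2165 bp) and Zeb2 (2046 bp). The Hoxa10 peak (chr6:52232375-52235276) reached 2565 bp downstream and 337 bp upstream, and its promoter letters are those printed above. Cdkn1b, Cpeb2, Pbx3 and Sox4 had broad peaks with Jmjd2a. Hoxa9, Hoxa5, Mef2c, Flt3, Lmo2 and Runx1 had no Jmjd2c promoter peak in the list. The list of Runx and core haematopoietic transcription factors held 3 of 36 (8.33%), Runx2, Etv6 and Zeb2, which the MLL list also holds. A broad peak with Jmjd2a lay at 1 of the 36 (2.78%).

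Histone demethylase genes themselves were among the members, 5 of 30 (16.7%, interval 5.64% to 34.7%). They were Kdm2b (3127 bp), Kdm6a (2740 bp), Kdm5a (2429 bp), Phf8 (2425 bp) and Kdm5b (2315 bp), which between them act on methylated H3K4, H3K9, H3K27 and H3K36. Another 5 genes of the list had broad peaks with Jmjd2a, Hspbap1, Jmjd6, Kdm7a, Phf2 and Kdm4c, the gene of Jmjd2c. The list includes Jumonji genes, such as Hspbap1 and Jmjd6, that are not established histone demethylases. Any Jmjd2c promoter peak was found at 29 of the 30, against 10254 of all 26219 curated genes.

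Histone methyltransferase genes numbered 7 of 57 (12.3%), against 11 (19.3%) at broad peaks with Jmjd2a. The widest were at Ehmt2 (2421 bp), which codes for the H3K9 methyltransferase G9a, Carm1 (2390 bp), Kmt2d (2350 bp) and Setd1a (2300 bp), and Setd1b, Kmt2e and Nsd3 followed. Kmt2d, Setd1a and Setd1b code for H3K4 methyltransferases and Nsd3 for an H3K36 methyltransferase. Kmt2a (MLL1) and Ezh2 were at broad peaks with Jmjd2a. SWI/SNF and chromatin remodeller genes numbered 6 of 43 (14.0%), Arid1b (4048 bp), Arid2 (4000 bp), Chd1 (2634 bp), Arid1a (2485 bp), Arid5b (2268 bp) and Bptf (2078 bp). Broad peaks with Jmjd2a held 7 of the 43 (16.3%). Chd1 and Bptf code for remodellers of other families, and Arid5b shares only the DNA-binding domain of the Arid genes. Deacetylases and corepressors gave 2 of 35 (5.71%), Gse1 and Ncor1 (2920 bp), and 6 (17.1%) with Jmjd2a.

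Cell cycle genes were split between both broad classes. Cyclins, Cdks, their inhibitors and E2F and Rb genes gave 6 of 51 (11.8%) among the members, Cdk6, Cdk1 (2843 bp), which drives mitosis, E2f3 (2440 bp), Ccnd2 (2237 bp), Cdk12 (2221 bp) and Cdk13 (2050 bp). Broad peaks with Jmjd2a held 9 (17.6%), among them the Cdk inhibitor genes Cdkn1b, Cdkn2a and Cdkn2c and the retinoblastoma gene Rb1. Replication and repair genes gave 3 of 86 (3.49%), Orc3 (3335 bp), Orc4 (2297 bp) and Rad23b (2181 bp), against 11 (12.8%) with Jmjd2a.

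Signalling genes included brakes on receptors, 5 of 48 (10.4%), against 6 (12.5%) with Jmjd2a. Spry2 (4590 bp) and Spred2 (3041 bp) code for inhibitors of the Ras pathway, Socs2 (2764 bp) and Socs4 (2113 bp) for inhibitors of cytokine receptors, and Rasa3 (2156 bp) for a GTPase-activating protein of Ras-like proteins. The interleukin-3 and JAK-STAT list gave 4 of 41 (9.76%), Pik3cd (2803 bp) and Pik3r1 (2255 bp), subunits of phosphoinositide 3-kinase, Stat6 (2502 bp) and Jak2 (2450 bp), the kinase that the interleukin-3 receptor uses. Broad peaks with Jmjd2a held 5 of the 41 (12.2%). Gnas was the only G protein subunit among 32 (3.13%), against 3 (9.38%) with Jmjd2a. The Wnt, Notch and TGF-beta list gave 2 of 88 (2.27%), against 7 (7.95%) with Jmjd2a. The 2 were Tcf7l2 (2951 bp) and Ctnnb1 (2403 bp), which codes for beta-catenin.

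Among housekeeping lists, respiratory chain and mitochondrial ribosome genes gave 11 of 165 (6.67%, interval 3.37% to 11.6%), against 8 (4.85%) with Jmjd2a, the widest being Mrps34 (2800 bp), Ndufs1 (2521 bp), Mrpl40 (2494 bp) and Atp5b (2449 bp). Cytosolic ribosomal protein genes gave 3 of 82 (3.66%, interval 0.761% to 10.3%), Rpl14 (2450 bp), Rps28 (2125 bp) and Rps27a (2112 bp). Zinc finger genes named Zfp gave 12 of 368 (3.26%), led by Zfp710 (4031 bp), Zfp608 (3200 bp) and Zfp84 (2814 bp), with Zfp942 and Zfp943 sharing a 2625 bp peak. The last 2 are close paralogs, and reads between such copies can be placed wrongly. Broad peaks with Jmjd2a held 19 of the 368 Zfp genes (5.16%) and 3 of the 82 ribosomal protein genes (3.66%). Apoptosis regulators gave 3 of 39 (7.69%, interval 1.62% to 20.9%), against 2 (5.13%) with Jmjd2a, and are not named here.

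Some lists had few or no members. No immediate early or AP-1 gene of 24 was at a member (interval 0% to 14.2%), while 6 (25%) were at broad peaks with Jmjd2a, Btg1, Egr1, Fosb, Fosl1, Jun and Nr4a2. The list of Forkhead, Klf and Sox factor genes also held Sp3, a gene of the Sp1 family. It gave 1 of 89 (1.12%), and this was Sp3 (2479 bp), against 8 (8.99%) with Jmjd2a. Solute carriers gave 3 of 364 (0.824%), Slc38a1 (2829 bp), Slc5a6 (2707 bp) and Slc35e4 (2101 bp), against 14 (3.85%). Markers of granulocytes and macrophages (36 genes) and of other lineages (34 genes) had none in either broad class, and 2 and 3 of them had any Jmjd2c promoter peak. Among all 26219 curated genes, 10254 had one.

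**Figure D5:**
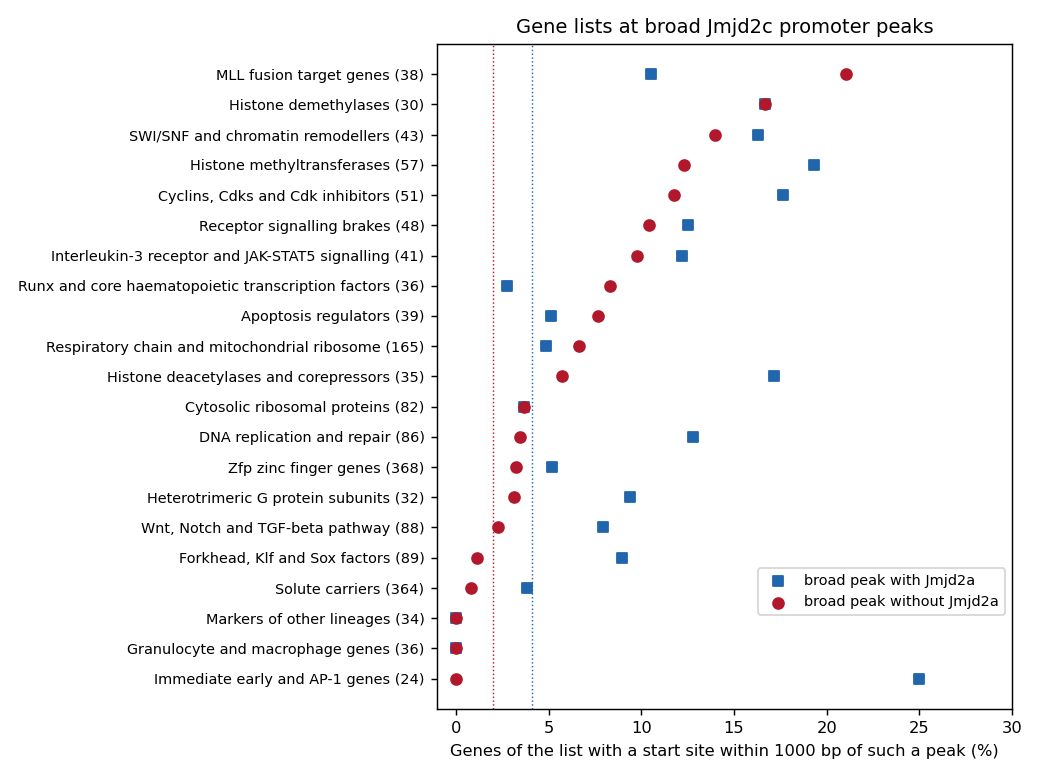
Share of each gene list with a start site within 1000 bp of a broad Jmjd2c promoter peak without Jmjd2a (circles) or with Jmjd2a (squares), in % on the x axis, with the number of genes per list in brackets and the shares over all curated genes as dotted lines (2.01% and 4.11%). MLL fusion targets stand at 21.1% and 10.5%, and immediate early genes at 0% and 25%.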

How the data were processed

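Chromatin immunoprecipitation was followed by sequencing, and groups were read from the sample titles. Per the submitters' processing notes, the tools were bedtools 2.25.0, SAMtools and Bowtie 0.12.7, with genome build mm10. Which program called peaks, at what threshold, against what control and on which libraries was not given in the sources used here. The authors deposited, per the file headers, positions of Jmjd2a and Jmjd2c peaks with features, start sites and distances in bp, and a table of co-bound start sites. No unit of signal is present.

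Positions are printed counting from 1 and widths are stop minus start. Genes came from RefSeq on GRCm38.p6, and 16875 of 17007 accessions matched. Where strand was not listed it was taken from the gene end nearest the start site (21 members), which was right for 97.7% of 10730 start sites of known strand. Shares carry exact (Clopper-Pearson) 95% binomial intervals. No test was run, because width and overlap chose the members. Tested on simulated data, the search for overlaps recovered 100% of 200 planted peaks.

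The members and the gene lists were chosen with earlier results of these data known. Genes were named by a rule. It takes the 15 widest members, those at either threshold, the 5 with most genes, the 5 nearest to and farthest from Jmjd2a, the 5 reaching farthest each way and up to 4 widest per list. Where a list has few members all are named. Other names were chosen after their values were seen. One gene that the rule names is not reported here. Alternatives were other widths, distances to a start site and overlaps, and one without chromosome X, added after seeing the data. Python 3.11.15, numpy 2.4.6, pandas 2.3.3, scipy 1.17.1 and matplotlib 3.10.9 were used.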

Additional observations from a re-analysis of the deposited data

How the results depend on the processing

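The number of members follows the width minimum, 1148 at 1500 bp, 112 at 2500 bp and 28 at 3000 bp, and so does the median downstream reach, 1079.5 bp at 1500 bp and 2241 bp at 3000 bp. The share of broad promoter peaks without Jmjd2a stayed between 30.8% and 33.9% under all alternatives run, and the median promoter CpG ratio between 0.815 and 0.858. Other limits on distance or overlap gave 388 to 394 members. Leaving out chromosome X, chosen after seeing the data, gave 382 members and a share of 32.5%. Depth and calling thresholds of both lists are unknown, and their part in the number of members was not tested. No paired analysis was possible because the columns carry no sample or replicate values.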

Other observations

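Several gene groups were noticed among the members and listed only after the members were seen, so their counts are descriptions. Over all curated genes the shares were 2.01% at a member and 4.11% at a broad peak with Jmjd2a. Genes of heterogeneous nuclear ribonucleoproteins, which bind and splice nascent RNA, gave 6 of 21 (28.6%), Hnrnpul2 (3037 bp), Hnrnpl (2988 bp), Hnrnpa0 (2715 bp), Hnrnpk (2593 bp), Hnrnpul1 (2314 bp) and Raly (2191 bp), and 3 more were at broad peaks with Jmjd2a. A list of immunoproteasome, proteasome activator and antigen processing genes gave 5 of 13 (38.5%), and none was at a broad peak with Jmjd2a. They were Psme4 (2201 bp), Psmb8 (2105 bp), Psme2 (2043 bp), and Psmb9 with Tap1 on a shared 2033 bp peak (chr17:34186571-34188603). Psme4 codes for the proteasome activator PA200, which is not an immunoproteasome subunit. MAP kinase kinases and the kinases above them gave 5 of 30 (16.7%), Map4k1 (2689 bp), Map3k11 (2628 bp), Map2k7 (2348 bp), Map3k7 (2077 bp) and Map4k2 (2027 bp). Polycomb group genes gave 5 of 37 (13.5%), Kdm2b, Eed (2544 bp), Asxl1 (2225 bp), Suz12 (2223 bp) and Rbbp7, with 5 also at broad peaks with Jmjd2a. Mediator genes gave 3 of 33 (9.09%), Med13l (2357 bp), Med26 (2129 bp) and Med18 (2041 bp), and acetyltransferases 2 of 13 (15.4%), Kat2b (2744 bp) and Ep300 (2029 bp). Broad peaks with Jmjd2a held 3 acetyltransferase genes (23.1%), 3 of the 30 MAP kinase genes (10%) and no Mediator gene.

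Of RefSeq microRNA hairpins, 11 lay within 1000 bp of a member and 8 of these inside it. The let-7i hairpin (Mirlet7i, chr10:122985640-122985724, minus strand) lay inside a 2128 bp member whose nearest Jmjd2a peak was 89337 bp away. The Mir26b hairpin lay 956 bp outside the 2168 bp peak at Ctdsp1. Both are known as repressors of growth genes. The mature sequences are shown with the seed, which pairs with target RNAs, in capitals.
mmu-let-7i-5p: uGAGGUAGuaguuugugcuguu
mmu-miR-26b-5p: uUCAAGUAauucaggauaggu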
